A study of Homo sapiens with 3 samples.

Results

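Immune checkpoint ligands are surface or secreted proteins by which a cell restrains the lymphocytes and phagocytes that meet it. PD-L1 and PD-L2 engage PD-1 on T cells, HVEM engages BTLA and CD160, and PVR and NECTIN2 engage TIGIT. Several of these genes are known to be induced in tumour cells by interferon gamma (IFN-γ), which activated CD8+ T cells release. RNA-seq of the nasopharyngeal carcinoma (NPC) line HK1 was used to follow 10 such genes after CRISPR targeting of FLI1, which encodes a transcription factor of the ETS family. They were taken from the table of 61550 genes by symbol: CD274, PDCD1LG2, TNFRSF14, PVR, NECTIN2, CD276, LGALS9, LGALS3, NT5E and CD47. All 10 had enough reads to be tested among 15483 genes.

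The table held 1 wild-type (WT) library and 2 FLI1-knockout (KO) libraries, the latter from cells made with different single guide RNAs (sgFLI1-1 and sgFLI1-2). All 3 came from HK1 cells exposed to activated CD8+ T cells in co-culture, so no library shows the cells without T cells. The sources used here do not say whether a KO population was 1 clone or a pool, nor whether the libraries came from separate cultures. The columns named KO1 and KO2 were assigned to sgFLI1-1 and sgFLI1-2 by their number, and if that assignment were crossed, each value given for 1 guide would belong to the other.

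Total counts ranged from 22172158 to 23904587 per library. FLI1 itself had 125 counts in WT against 11 with sgFLI1-1 and 109 with sgFLI1-2. The transcript was therefore nearly lost with 1 guide and present with the other. Counts of mRNA do not show whether the protein was lost. Both libraries are called KO by their labels only, so every direction given for KO rests on those labels. FLI1 lies on chromosome 11 between 100 and 140 Mb. There, 123 genes with at least 100 WT counts had a median log2 change of -0.57 in the sgFLI1-1-labelled library and 0.02 in the other. The part of that stretch in the FLI1 value was not tested. The T cells left little trace in the RNA. CD3D, CD3E, CD3G, CD8A and CD8B were at 0 counts in every library, as were 14 of 19 T and NK cell markers, and all 19 together had 47 counts in WT against 7 with sgFLI1-1 and 30 with sgFLI1-2. Of the epithelial markers, KRT8 and KRT18 were abundant (936 and 628 FPKM, fragments per kilobase of transcript scaled to sequencing depth, in WT), whereas the squamous markers KRT5, KRT14, TP63, DSG3 and the cadherin gene CDH1 had no more than 44 counts in any library.

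The 10 genes did not move as a block. PD-L2 and HVEM mRNAs fell steeply in both KO libraries, PVR mRNA was at 48.4% and 52.8% of its WT level per library size, PD-L1 mRNA was lower to an extent that differed between the guides, and NECTIN2 and CD276 mRNAs were at 98.1% to 113% of WT. LGALS9 (43.2% and 38.4% of WT), CD47 (69.5% and 57.0%) and NT5E (68.3% and 81.2%) were also lower in both KO libraries without passing the test. LGALS3, which encodes galectin-3, had higher values in both KO libraries, also without passing it. Counts were compared with edgeR's quasi-likelihood test of both KO libraries against WT, with p-values adjusted over all genes tested, and calls required an adjusted p below 0.05 together with at least a 2-fold change. Of the 10 genes 2 were called lower and 0 higher, beside 2.95% and 1.83% of all genes tested. By the adjusted p alone 3 were lower (PDCD1LG2, TNFRSF14 and PVR), beside 4.27% of all genes, and 0 higher, beside 2.62%. Of the 10, 8 had an unadjusted p under 0.05, beside 20.8% of all genes. The values were lower than WT in both KO libraries for 7 of the 10 genes (40.8% of all genes) and higher in both for 2 (38.4% of all genes). The fitted log2 fold change was below 0 for 7 of the 10 (49.9% of all genes), and its median was -0.76, beside 0.00 over all genes tested. Median-of-ratios scaling (3.18% of all genes lower, 2% higher), upper-quartile scaling (3.29% and 2.26%), DESeq2 (2.13% and 1.56%) and a minimum of 50 counts in 1 library (3.26% and 1.89%) each called the same number of the 10, 2 lower and 0 higher. With limma-voom after quantile normalization (0.155% and 0%) and without a filter on low counts (0.143% and 0.0113%), 0 of the 10 were called. Only 1 WT library was measured, so the test assumes that WT varies as the KO libraries do.

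**Figure D1:**
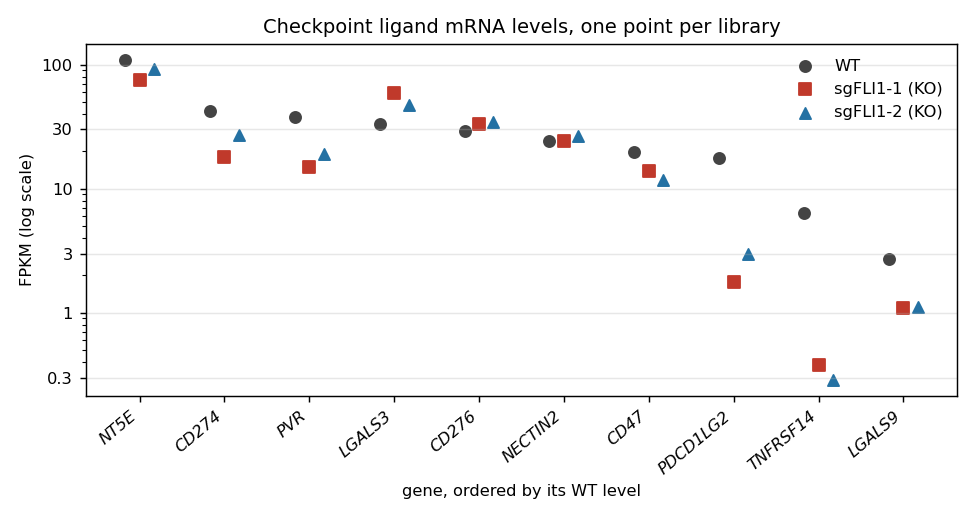
Level of each of the 10 checkpoint ligand mRNAs in FPKM (log axis), with 1 point per library and genes ordered by their WT level. NT5E is the highest in all 3 libraries, and the gap between WT and both KO libraries is widest for PDCD1LG2 and TNFRSF14.

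In WT cells the levels per transcript length spanned 2.72 FPKM (LGALS9) to 109 FPKM (NT5E). CD274 ranked second among the 10 at 42.0 FPKM, followed by PVR at 37.7 and LGALS3 at 33.3 FPKM. CD276 (29.3), NECTIN2 (24.2), CD47 (19.9) and PDCD1LG2 (17.8 FPKM) formed the middle, and TNFRSF14 stood at 6.37 FPKM. With 1 WT library, neighbours in this order cannot be told apart beyond a replicate spread. In the KO libraries the order changed. LGALS3 took rank 2 in both, with 58.9 and 47.1 FPKM, CD276 took rank 3, PVR went to rank 6 and TNFRSF14 became the lowest. The FPKM of the 10 genes summed to 322 in WT against 241 with sgFLI1-1 and 262 with sgFLI1-2.

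The ligands of PD-1 are encoded side by side on the short arm of chromosome 9. CD274 (ENSG00000120217, chromosome 9, 5450503 to 5470566, GRCh38, plus strand) encodes PD-L1, and PDCD1LG2 (ENSG00000197646, chromosome 9, 5510531 to 5571282, plus strand) encodes PD-L2 and begins 39964 bases downstream. Because CD274 is a textbook IFN-γ response gene, the sequence before its start is shown for the motifs through which that response is known to run. The stretch below is taken from the RefSeq promoter table (GRCh38.p14, chr9:5450292-5450502, plus strand) and ends at the base before the gene's deposited start. Capitals mark matches to the IRF pair motif (GAAANNGAAA, read here on the minus strand) and to the interferon gamma-activated site (GAS, TTCNNNGAA).
CD274 upstream: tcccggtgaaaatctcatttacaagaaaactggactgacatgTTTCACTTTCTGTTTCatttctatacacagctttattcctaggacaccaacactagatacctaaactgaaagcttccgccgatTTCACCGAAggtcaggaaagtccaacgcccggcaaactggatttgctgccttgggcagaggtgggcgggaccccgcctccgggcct
Counted from the first base shown, the IRF pair matched at bases 43 to 52 and again, overlapping it, at bases 49 to 58. The GAS motif matched at bases 126 to 134. Across 35116 RefSeq promoter entries, 3.02% held an IRF pair and 6.57% a GAS motif on either strand in the 250 bases before the RefSeq start. An ETS motif (CCGGAA on either strand), present in 14.5% of entries, had no match before CD274. The shorter ETS letters GGAA, which do occur in the stretch shown, were not searched. Of the 10 genes 9 had an entry (PDCD1LG2 had none). In these windows an IRF pair or GAS match was found for CD274 alone and a CCGGAA match for CD276 alone. RefSeq starts differ from the deposited ones, and of the 10 windows (CD276 has 2 entries) 7 lay wholly and 3 partly inside the deposited gene, 8 of them over an annotated exon. The bases upstream of the deposited starts of the other genes were thus largely not searched. A match is a description of the letters and shows no binding, and the lack of one says only that these letters are not in that window.

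PD-L1 mRNA was lower in both KO libraries but missed the threshold. CD274 had 3510 counts in WT against 1625 with sgFLI1-1 and 2377 with sgFLI1-2, or 42.0, 17.9 and 27.2 FPKM. The KO libraries were thus both below WT and apart from each other, the lower value being in the sgFLI1-1-labelled library. Relative to WT per library size, the log2 change was -1.21 in the sgFLI1-1-labelled library (exact binomial 95% bounds -1.29 and -1.12, counting error only) and -0.59 in the sgFLI1-2-labelled library (-0.66 to -0.51). In bulk RNA, fewer cells with the transcript and less of it per cell cannot be told apart. Over both, the edgeR log2 fold change was -0.86 (SE 0.23, 95% interval -1.37 to -0.35), a 1.82-fold lower level with an adjusted p of 0.0501. The adjusted p moved across the threshold with the settings, from 0.0163 with upper-quartile scaling to 0.432 without a filter on low counts, and the fold change stayed under 2 in each of the tests.

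PD-L2 mRNA fell much further. PDCD1LG2 had 1067 counts in WT against 113 with sgFLI1-1 and 177 with sgFLI1-2, or 17.8, 1.77 and 2.95 FPKM. Both KO libraries held under 20% of the WT level per library size (9.92% and 16.3%). The log2 fold change was -2.93 (SE 0.27, 95% interval -3.52 to -2.34), a 7.63-fold fall (edgeR adjusted p = 8.89e-05), and DESeq2 called it too. The call was lost with limma-voom after quantile normalization (adjusted p = 0.0926) and without the filter on low counts (adjusted p = 0.110), at nearly the same fold change. An unnamed antisense lncRNA (ENSG00000286162) spans the whole gene and part of CD274. It had 52, 21 and 15 counts, and as no source used here states whether counting was stranded, its reads cannot be told apart from those of both genes.

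The makeup of the PD-1 ligand transcripts differed accordingly. There were 3.29 CD274 reads per PDCD1LG2 read in WT (exact binomial 95% bounds 3.07 and 3.53), 14.4 in the sgFLI1-1-labelled library (11.9 to 17.6) and 13.4 in the sgFLI1-2-labelled library (11.5 to 15.7). The intervals of both KO libraries overlapped each other and lay above that of WT, although the KO libraries differed in the level of CD274 itself. Per transcript length, the FPKM ratios were 2.36, 10.1 and 9.20. This pair of genes, and that of PVR and NECTIN2, was set side by side after the values were seen, and the intervals cover counting error only.

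**Figure D2:**
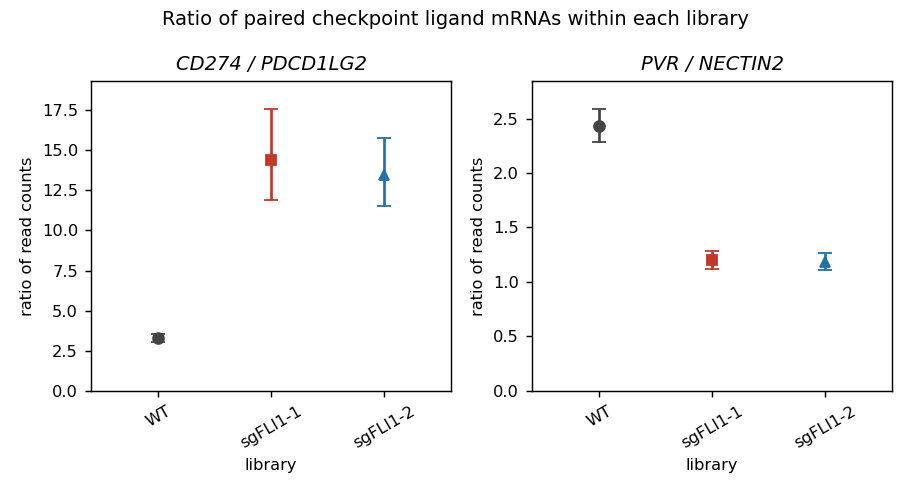
Ratio of read counts of CD274 to PDCD1LG2 (left) and of PVR to NECTIN2 (right) in each library, 1 point per library, with 95% exact binomial intervals that cover counting error only. The first ratio is 3.29 in WT and above 13 in both KO libraries, and the second is 2.43 in WT and near 1.2 in both.

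The genes directly on either side were not called. PLGRKT, which lies between JAK2 and CD274, had 327, 353 and 289 counts (log2 fold change -0.09, SE 0.24). RIC1, the next listed gene after PDCD1LG2, had 484, 751 and 838 counts (0.66, SE 0.21, adjusted p = 0.0929). Of 12 neighbours on the 9p24 list 1 was called lower and 0 higher, beside 2.95% and 1.83% of all genes. The called gene was JAK2, a kinase of the IFN-γ receptor beside JAK1, lower with 604, 284 and 318 counts (-1.06, SE 0.22, adjusted p = 0.0141). CDC37L1 (0.84, adjusted p = 0.0468) and AK3 (0.72, adjusted p = 0.0440) passed the adjusted p in the other direction at less than a 2-fold change. The median over the 12 neighbours was 0.31.

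**Figure D3:**
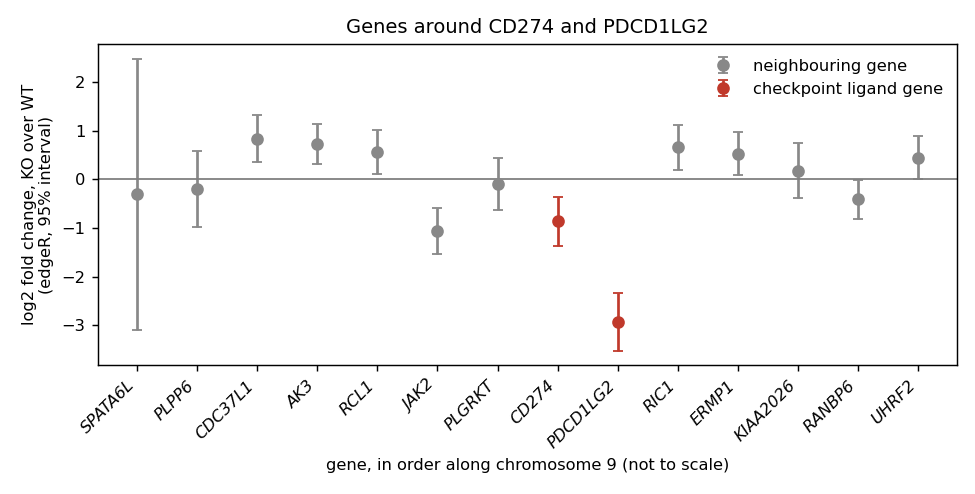
Log2 fold change of KO over WT with its 95% edgeR interval for 14 genes of 9p24, in their order along the chromosome (spacing not to scale). The intervals of CD274, PDCD1LG2, JAK2 and, narrowly, RANBP6 lie wholly below 0, that of PLGRKT spans 0 and that of RIC1 lies above 0.

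TNFRSF14 (ENSG00000157873, chromosome 1, 2555639 to 2565382, plus strand) encodes HVEM, a TNF receptor family member that acts as the ligand of BTLA and CD160 and as a receptor of LIGHT. It had the largest change of the 10. The gene had 299 counts in WT and 21 in each KO library, or 6.37, 0.380 and 0.287 FPKM. Both KO libraries were at about the same low level, 6.58% and 6.91% of WT per library size. The log2 fold change was -3.88 (SE 0.37, 95% interval -4.70 to -3.07), a 14.8-fold fall (adjusted p = 0.000115). With 21 counts, each KO level is known only within a wide counting interval (-4.64 to -3.29 and -4.57 to -3.22 on the log2 scale). The call was lost under the same pair of settings as that of PDCD1LG2 (adjusted p = 0.0799 with limma-voom and 0.0722 without the filter). The antisense gene TNFRSF14-AS1 overlaps it and had 6, 0 and 2 counts. Of the partners of HVEM, the LIGHT gene TNFSF14 (3, 0 and 1 counts), BTLA (0 in each) and CD160 (4, 0 and 2) had too few reads to test. LTBR, the lymphotoxin beta receptor, which LIGHT also binds, was well expressed with 1977, 2906 and 2122 counts and did not pass the test (0.28, SE 0.20, adjusted p = 0.476).

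PVR and NECTIN2 are nectin-type adhesion molecules of chromosome 19 that bind the same T and NK cell receptors, the activating CD226 and the inhibitory TIGIT. PVR (ENSG00000073008, chromosome 19, 44643798 to 44666162) had 3592 counts in WT against 1858 with sgFLI1-1 and 1927 with sgFLI1-2. Both KO libraries lay below WT by about the same amount. The log2 fold change was -0.98 (SE 0.17, 95% interval -1.36 to -0.61, adjusted p = 0.00536), so PVR passed the adjusted p at a fold change of 1.98, just under the 2-fold limit. The deposited FPKM gave a larger difference, from 37.7 to 14.9 and 19.03 FPKM, which is 2.24-fold at the mean of the log2 ratios. The adjusted p of PVR did not hold with limma-voom (0.126) or without the filter (0.144).

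NECTIN2 (ENSG00000130202, chromosome 19, 44846175 to 44889223), 180 kb downstream, had 1477, 1548 and 1631 counts, with WT between the KO libraries once library size was taken into account. Its log2 fold change was 0.05 (SE 0.18, 95% interval -0.34 to 0.44, adjusted p = 0.913), so changes of more than about 1.36-fold upward lay outside the interval. PVR reads per NECTIN2 read went from 2.43 in WT (2.29 to 2.59) to 1.20 (1.12 to 1.28) and 1.18 (1.11 to 1.26) in the libraries labelled sgFLI1-1 and sgFLI1-2. Per transcript length PVR was above NECTIN2 in WT (FPKM ratio 1.56) and below it in both KO libraries (0.621 and 0.718). Of 9 tested neighbours of the pair on 19q13, 0 were called by edgeR (2.95% of all genes lower, 1.83% higher). By the adjusted p alone 0 passed (4.27% and 2.62% of all genes). Their median log2 fold change was -0.15. CEACAM19, which overlaps the end of PVR on the same strand, had 73, 29 and 52 counts.

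The other nectin genes went different ways. NECTIN1 had 2022, 395 and 820 counts and was called lower (-1.78, SE 0.33, adjusted p = 0.00805), but not by DESeq2 (adjusted p = 0.339). NECTIN1 lies on chromosome 11, where 123 genes between 100 and 140 Mb with at least 100 WT counts had a median log2 change of -0.57 in the sgFLI1-1-labelled library and 0.02 in the other KO library. The part of that stretch in the NECTIN1 value was not tested. NECTIN3 had 344, 713 and 720 counts (1.00, SE 0.21, adjusted p = 0.0151), at 2-fold to rounding, and was called higher by DESeq2 alone. AFDN, the afadin gene whose product anchors nectins to actin, did not pass the test (-0.10, adjusted p = 0.790).

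**Figure D4:**
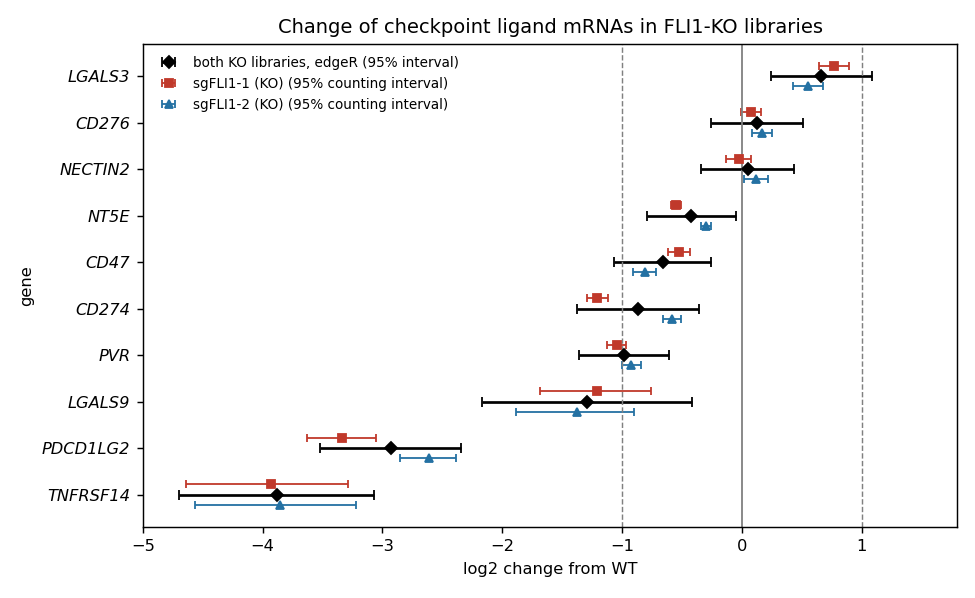
Log2 change from WT of each of the 10 genes, for each KO library with its 95% exact binomial interval (counting error only) and for both together with the 95% edgeR interval (black diamonds). Dashed lines mark a 2-fold change. The points of TNFRSF14, PDCD1LG2 and LGALS9 lie beyond it in both KO libraries, though the counting intervals of LGALS9 reach inside it. CD274 is among the 8 genes whose KO libraries were apart beyond counting error.

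CD276 (ENSG00000103855, chromosome 15, 73683966 to 73714514) encodes B7-H3, a B7-family member that is widely present on carcinoma cells. It had 2162, 2429 and 2475 counts, or 29.3, 32.9 and 34.7 FPKM. Its log2 fold change of 0.12 (SE 0.17, 95% interval -0.26 to 0.51, adjusted p = 0.743) did not pass the test, and neither KO library lay below WT. Of the B7-family genes outside the 10, CD80, CD86 and VTCN1 were at 0 counts in every library, which allows up to 3 counts in each, and HHLA2 had no more than 2. ICOSLG (166, 162 and 158 counts) and VSIR, which encodes VISTA (877, 833 and 1121 counts), were measured and did not pass the test (-0.11 and 0.10).

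The galectins bind sugar chains of surface glycoproteins, galectin-9 being a ligand of TIM-3. LGALS3 (ENSG00000131981, chromosome 14, 55124110 to 55145423) had 853, 1552 and 1271 counts, or 33.3, 58.9 and 47.1 FPKM, higher in both KO libraries than in WT. Its log2 fold change was 0.66 (SE 0.19, 95% interval 0.24 to 1.09), and its adjusted p of 0.0696 missed the threshold, which it passed with upper-quartile scaling (0.0378) at less than a 2-fold change. LGALS9 (ENSG00000168961, chromosome 17, 27629798 to 27649560) had 128, 59 and 50 counts, about 2.45-fold lower (-1.29, SE 0.40, adjusted p = 0.0880), and did not pass either. Its values are uncertain, since LGALS9B (133, 83 and 123 counts) and LGALS9C (23, 33 and 53 counts) are near-identical copies that can share its reads. Summed over the 3 genes there were 284, 175 and 226 counts, a log2 change of -0.79 (exact interval from -1.07 to -0.52) in the sgFLI1-1-labelled library and -0.35 (-0.61 to -0.10) in the sgFLI1-2-labelled library. Of 8 galectin-list genes tested, 0 were called in either direction by edgeR (2.95% of all genes lower, 1.83% higher) or DESeq2 (2.13% and 1.56%). LGALS3BP, the secreted galectin-3-binding protein gene, passed the adjusted p alone with 14365, 8216 and 8091 counts (-0.88, SE 0.15, adjusted p = 0.00533), opposite in sign to LGALS3. LGALS1 stayed the most abundant galectin mRNA at 535, 602 and 678 FPKM (0.24, adjusted p = 0.451).

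NT5E (ENSG00000135318, chromosome 6, 85449584 to 85495791) encodes CD73, the ectoenzyme that makes adenosine from AMP. It had 9751, 7111 and 8046 counts, or 109, 75.6 and 91.5 FPKM, and remained the highest of the 10 in every library. Both KO values were below WT (68.3% and 81.2% per library size), and the log2 fold change of -0.42 (SE 0.17, 95% interval -0.79 to -0.05, adjusted p = 0.186) did not pass the test. Of 11 other tested genes of the adenosine pathway 0 were called lower and 1 higher, beside 2.95% and 1.83% of all genes. ADORA1, an adenosine receptor gene, was higher with 37, 133 and 133 counts (1.78, SE 0.42, adjusted p = 0.0308), and not by DESeq2 (adjusted p = 0.0765). ADORA2A had 0, 13 and 25 counts (adjusted p = 0.0696, not called). ENTPD1, which encodes the upstream enzyme CD39, had 149, 237 and 165 counts (0.37, adjusted p = 0.595).

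CD47 (ENSG00000196776, chromosome 3, 108043091 to 108091862, minus strand) encodes the signal to phagocytes that is read by SIRPA. It had 2400, 1782 and 1390 counts, or 19.9, 13.9 and 11.7 FPKM. Both KO libraries lay below WT, here with the lower value in the sgFLI1-2-labelled library. The log2 fold change was -0.66 (SE 0.18, 95% interval -1.07 to -0.25), with an adjusted p of 0.0589 that fell below the threshold with median-of-ratios (0.0469) and upper-quartile scaling (0.0360). Of 6 other tested genes of its pathway, 0 were called by edgeR (2.95% of all genes lower, 1.83% higher) or DESeq2 (2.13% and 1.56%). The thrombospondin gene THBS1, another CD47 ligand, had 7303, 7816 and 7077 counts (-0.03, SE 0.16).

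The guides were compared by counting error alone. For 8 of the 10 genes the 95% exact binomial interval of the ratio between the KO libraries left out 0 on the log2 scale, the exceptions being TNFRSF14 and LGALS9, which also had the fewest counts. This held for 47.7% of all genes tested and for 64.5% of those with at least 1000 counts over both KO libraries, so such gaps were common. The value was lower in the sgFLI1-1-labelled library for 7 of the 10 genes (50.1% of all genes). The widest gaps were those of PDCD1LG2 (log2 ratio of sgFLI1-1 to sgFLI1-2 of -0.72) and CD274 (-0.62). Taken alone, the sgFLI1-1-labelled library had 5 of the 10 genes at least 2-fold below WT (10.4% of all genes) and the sgFLI1-2-labelled library had 3 (8.2% of all genes), the difference being CD274 and PVR. At least 2-fold above WT were 0 of the 10 in either (6.76% and 5.87% of all genes).

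Of 21 further checkpoint ligand genes 12 could be tested. Of these 3 were called lower and 0 higher, beside 2.95% and 1.83% of all genes tested. CEACAM1, a ligand of TIM-3 and of itself, fell from 219 counts to 22 and 18 (-3.51, SE 0.40, adjusted p = 0.000441). HLA-E, the ligand of the NKG2A receptor of NK and T cells, fell from 19018 counts to 3779 and 4245 (-2.30, SE 0.16, adjusted p = 1.46e-05). NECTIN1 was the third, and DESeq2 called 2 lower and 1 higher (2.13% and 1.56% of all genes). The genes of the receptors were nearly silent, with 13 of 15 too low to test. PDCD1, BTLA, CTLA4, CD28 and ICOS were at 0 counts in each library and TIGIT at no more than 1.

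Among 21 genes on a list of PD-L1 regulators 5 were called lower and 1 higher, with the same counts by DESeq2. IRF1, the transcription factor that binds the IRF motif in the CD274 promoter, had 25965, 3520 and 3655 counts (-2.91, SE 0.15, adjusted p = 1.86e-06). The feedback inhibitor SOCS1 had 782, 114 and 90 counts (-3.00, SE 0.24), and IRF2 had 987, 418 and 445 (-1.25, SE 0.19). STAT3 (-1.07) and JAK2 were the other lower genes, each at close to 2-fold. MYC was called higher with 5277, 11445 and 10857 counts (1.02, SE 0.16, adjusted p = 0.00351). CMTM6, whose product keeps PD-L1 protein at the cell surface, had 3219, 4012 and 3418 counts and did not pass the test (0.14, SE 0.17, adjusted p = 0.693). The list was picked with earlier results of these data known, and its counts stand beside the 2.95% and 1.83% of all genes called lower and higher.

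The genes whose pair of changes lay nearest to that of each PD-1 ligand and of TNFRSF14 were found by Euclidean distance between the log2 changes of both KO libraries (a fraction of a count added to each value), among 10353 genes with a symbol and at least 100 WT counts. This describes 3 libraries and carries no test. For PDCD1LG2 the nearest were UBA7, which encodes the activating enzyme of ISG15 (425, 46 and 72 counts, distance 0.0530), SLC15A3 (541, 55 and 85 counts) and the interferon-signalling gene IRF9 (213, 24 and 34 counts). For TNFRSF14 they were IL12RB1 (118, 8 and 9 counts, distance 0.159), HLA-DPA1 (397, 26 and 25 counts) and APOL4 (1044, 84 and 82 counts). For CD274 they were the pseudogene BCLAF1P2 (165, 78 and 116 counts, distance 0.0657), PPP2R5B (116, 56 and 80 counts) and the long noncoding RNA LUCAT1 (764, 341 and 545 counts), and 0 of these 3 passed edgeR's test.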

How the data were processed

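Poly-A RNA-seq of 3 HK1 libraries (1 WT, 2 FLI1-KO) was analysed, grouped by the genotype label. According to the submitters' notes and published methods, the authors used fastp (0.23.2) for trimming, HISAT2 (2.0.4) for alignment to GRCh38.p12 and StringTie (1.3.4d) for quantification. One deposited measure was the raw read count of each gene, in whole numbers and without normalization, whose counting tool no source used here names. FPKM values were deposited by the authors as well, scaled to transcript length and library size, used here for levels. The deposited coordinates of all 10 genes equalled those of GENCODE v44.

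Counts were tested with edgeR (4.0.16, R 4.3.3; glmQLFit and glmQLFTest) after TMM scaling and filterByExpr (minimum count 10), leaving 15483 genes, with 1 residual and 9.56 prior degrees of freedom and Benjamini-Hochberg adjustment. All p-values are two-sided and set the difference of KO from WT against a spread. That spread comes from the KO libraries, is moderated over all genes and may be technical. Each SE was derived as the absolute log2 fold change divided by the root of the F statistic. Changes per library used counts over TMM-scaled totals with exact binomial (Clopper-Pearson) intervals at 95%, which cover counting error only, and a floor of 3 counts. The fit was tested on simulated data. Alternatives were other scalings, limma-voom (limma 3.58.1) with quantile normalization, DESeq2 (1.42.0), other filters, no fold limit, FPKM with pseudocounts of 1 and 0.1, and leaving out each KO library.

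The genes, lists and tests were chosen with earlier results of these data known. Named were the 10 genes, FLI1, direct partners on the lists and up to 4 called genes per list by fold change; markers named one by one, neighbouring and overlapping genes were chosen after their values were seen. Motifs were searched on both strands in the 250 bases upstream of RefSeq starts, most of which lie inside the deposited genes.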

Additional observations from a re-analysis of the deposited data

How the results depend on the processing

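Of the 10 genes, 2 were called lower with median-of-ratios scaling, upper-quartile scaling, DESeq2 and a minimum of 50 counts in 1 library, as with the main settings, and 0 were called higher under any alternative. With limma-voom after quantile normalization 0 of the 10 were called, beside 24 lower and 0 higher of 15483 genes, and without the filter 0 of the 10, beside 38 lower and 3 higher of 26506. Both alternatives thus thinned the calls over the whole table, from 457 lower and 283 higher, while no log2 fold change of the 10 genes reversed under any alternative except that of NECTIN2 with 1 KO library alone, which lies near 0 (-0.03 with sgFLI1-1 alone, 0.12 with sgFLI1-2 alone) and was not called. Without the fold limit 3 were lower. With 1 KO library left out no test was possible, and by a 2-fold limit alone 3 to 5 of the 10 were lower and 0 higher, beside 1270 to 1612 lower and 909 to 1047 higher over all genes; the 5 rest on the library labelled sgFLI1-1. On log2(FPKM + 1) the change of TNFRSF14 was -2.47 and that of LGALS9 -0.82, both smaller because the pseudocount weighs on low values. No paired analysis was possible because the WT group has 1 library and shares no replicate pairs with the KO group. Depth limits TNFRSF14 and LGALS9 most, with 21 to 59 counts in the KO libraries.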
